A study of Homo sapiens with 6 samples.

Results

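The transcripts examined here were those of 10 human genes that control mitochondrial biogenesis, namely PPARGC1A, PPARGC1B, PPRC1, NRF1, GABPA, GABPB1, ESRRA, PRKAA1, PRKAA2 and SIRT1. All probe sets that the annotation of the array assigned to a single one of these genes were taken, which gave 155 of 352859 probe sets and 10 of 22260 measured genes. The genes were named by their known role, but with earlier results of these data known. A probe set that named GABPB1 together with its antisense transcript was left out.

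Total RNA was hybridized to whole-transcript Affymetrix arrays from 3 Mitochondrial transfer samples and 3 Control samples of NK-92MI, a human natural killer (NK) cell line that makes its own interleukin-2. The Mitochondrial transfer cells had received 5 µg of mitochondria isolated from the human line WRL-68, spun onto them at 1500 × g for 15 min. The labels carry the same protocol on the Control samples, so whether those were also centrifuged is not given, and neither are the time of harvest and whether replicates were separate cultures. The p-values therefore measure only the spread between these samples, all of 1 cell line, and that spread may be technical.

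Cells make new mitochondrial components by switching on nuclear genes. The PGC-1 coactivators (PPARGC1A, PPARGC1B and PPRC1) do not bind DNA themselves, and are recruited by transcription factors such as NRF-1, the GABP complex and estrogen-related receptor alpha (ESRRA), which sit at promoters of respiratory chain genes and of factors that copy and transcribe mitochondrial DNA. AMP-activated protein kinase (AMPK), whose catalytic subunits are PRKAA1 and PRKAA2, and the NAD-dependent deacetylase SIRT1 sense energy and NAD supply and modify PGC-1α. Several of these steps act on proteins, which an RNA array does not measure.

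Each value is a log2 intensity, and a difference is Mitochondrial transfer minus Control on the log2 scale. A gene's level was the mean over all its probe sets, and the brightest probe set alone gave a further summary. The background was the 95th percentile of 387 olfactory receptor genes, at 5.63 for the mean of probe sets, 6.59 for the brightest probe set and, over 877 probe sets, 6.18 for single ones. The labelled cell type was checked against markers, of which 14 of 14 NK cell genes lay above background in at least 1 group mean, against 1 of 9 hepatocyte genes, 1 of 6 epithelial genes, 2 of 5 T cell genes (CD3E and CD8A), 2 of 5 monocyte and B cell genes (CSF1R and CD79A) and 2 of 5 skeletal muscle genes (ACTA1 and CKM). Across genes, Pearson's r was 0.978 to 0.979 between Mitochondrial transfer arrays, 0.987 to 0.988 between Control arrays and 0.977 to 0.979 between the groups, and the median SD per gene was 0.167 in the Mitochondrial transfer group and 0.133 in the Control group.

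None of the 10 regulators passed the test after mitochondrial transfer in any of the 3 fits, which does not show that their levels were equal. With limma and Benjamini-Hochberg adjustment over all features, 0 of 10 genes passed an adjusted p of 0.05 on the mean of probe sets (0.319% of all genes passed), 0 of 10 on the brightest probe set (1.98% passed) and 0 of 155 as single probe sets (0.0612% passed). The lowest adjusted p was 0.120 for the mean of probe sets, 0.304 for the brightest probe set and 0.279 for single probe sets. At an unadjusted limma p under 0.05, 2 of 10 were lower on the mean of probe sets (12.3% of all genes) and 0 were higher (6.72% of all genes). The 2 genes were PPRC1 and NRF1. On the brightest probe set 0 of 10 passed at that threshold, while of all 22260 genes 2362 were higher and 1628 lower. By the methods' t-test, applied to the mean of probe sets and left unadjusted, 3 of 10 passed, as did 17.5% of all genes, and 0 passed after adjustment.

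Of the 10 genes, 8 lay clearly above background on all 6 arrays and 2, PPARGC1A and PRKAA2, lay below it on all 6. Among the 8, 7 had a negative difference and GABPA a positive one, with a median of -0.21. Over all 11817 genes above background, 69.5% had a negative difference and the median was -0.11, so the sign of the 7 was also that of most expressed genes. In bulk RNA a change in some of the cells and a smaller change in all of them cannot be told apart.

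**Figure D1:**
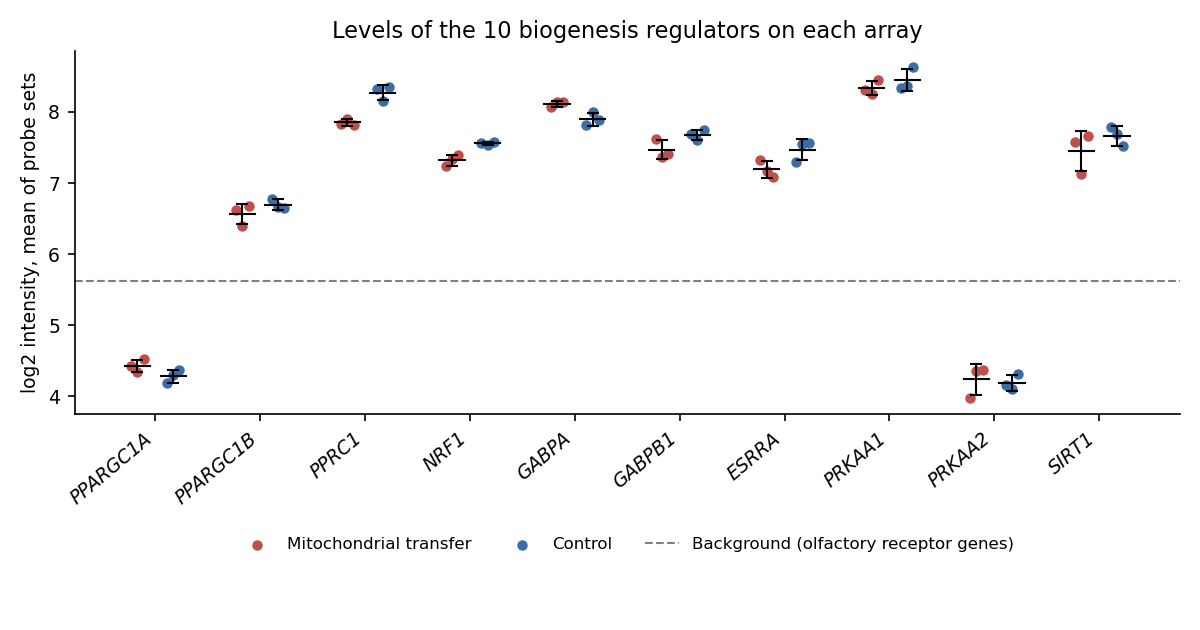
Log2 intensity of each regulator (vertical axis, mean of its probe sets) on the 3 Mitochondrial transfer arrays (red, left of each pair) and the 3 Control arrays (blue, right), with the mean and SD as black bars and the background of 5.63 as a dashed line. PPARGC1A and PRKAA2 sit below the line on all 6 arrays, and the groups are separate in PPRC1, NRF1 and GABPA.

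The coactivators are described first. PPRC1, the PGC-1-related coactivator that responds early when quiescent cells are stimulated to grow, is on chromosome 10 and was covered by 17 probe sets. Its level was 7.83, 7.91 and 7.82 on the Mitochondrial transfer arrays, against 8.32, 8.15 and 8.35 on the Control arrays. All 3 Mitochondrial transfer arrays lay below all 3 Control arrays, as they did for 17.5% of all genes. The means were 7.85 ± 0.047 after transfer and 8.27 ± 0.11 in the Control group (SD, n = 3 each), with a difference of -0.42 (SE 0.11, 95% interval -0.66 to -0.18, limma adjusted p = 0.120). This was the largest difference among the 8 expressed regulators, and 5.09% of all genes had a lower one. The adjusted p was 0.0318 when only genes above background were tested, where 7.36% of genes passed as lower, and 0.0174 with a trended and robust variance, where 4.6% did.

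The single probe sets of PPRC1 mostly moved the same way. Of 17, all with a group mean above background, 14 had a negative and 3 a positive difference, from -1.13 to 0.50 with a median of -0.32. The groups did not overlap in 9, lower in 8 and higher in 1. The probe set with the highest difference (16708551) read 8.19, 8.04 and 8.22 after transfer, against 7.51, 7.70 and 7.75 in the Control group. It ran opposite to the gene as a whole, and its adjusted p was 0.469. The probe set with the lowest difference (16708550) read 5.92, 7.67 and 6.22 after transfer, against 7.76, 7.34 and 8.11 in the Control group. There the groups overlapped, since Mitochondrial transfer replicate 2 was within the Control range. The brightest probe set of PPRC1 read 10.15, 10.13 and 9.91 after transfer, against 10.41, 10.25 and 10.47 in the Control group. The groups were again separate (lower and separate in 11.8% of all genes on this summary), with a difference of -0.32 (limma adjusted p = 0.304).

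PPARGC1A encodes PGC-1α, the coactivator known for its abundance in brown fat, heart and oxidative muscle and for its induction by cold and exercise. It is on chromosome 4 and had the most probe sets, 29. Its level was 4.42, 4.34 and 4.52 after transfer, against 4.19, 4.30 and 4.37 in the Control group. All 6 values were under the background of 5.63, so no difference is given for the gene. Only 7 of its 29 probe sets had a group mean above background. Of the 29, 17 differences were positive and 12 negative, and of the 7, 6 were positive and 1 negative. The lowest limma adjusted p among the 7 was 0.474. Some of the 7 were above background only after transfer, which favours a positive sign. An example is 16974838, with means of 6.63 after transfer and 5.96 in the Control group and no overlap.

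The brightest probe set of PPARGC1A (16974837) read 6.47, 7.69 and 7.07 after transfer, against 6.86, 6.22 and 6.46 in the Control group. It stood above the background of 6.59 on 2 Mitochondrial transfer arrays and on 1 Control array. The groups overlapped, and the Control mean of 6.51 was under background. Against Control values raised to background where they lay below it, the mean after transfer was 1.32-fold higher. This fold is an estimate and not a minimum. The limma interval of the measured difference ran from -0.20 to 1.33, across both signs (limma adjusted p = 0.407). The measured difference was 0.57, and 0.26 without Mitochondrial transfer replicate 2. Transcript of PPARGC1A was thus at the limit of what these arrays detect in both groups. The widest spread of single probe sets among the 10 genes, from -1.84 to 1.52, was also seen here, and both extremes came from probe sets at background.

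PPARGC1B encodes PGC-1β, a close relative of PGC-1α that is less inducible and supports basal mitochondrial content. It is on chromosome 5, and its level was 6.61, 6.40 and 6.67 after transfer, against 6.78, 6.66 and 6.65 in the Control group. The groups overlapped, with a difference of -0.13 (SE 0.12, 95% interval -0.40 to 0.13, limma adjusted p = 0.567), and it was -0.0533 without Mitochondrial transfer replicate 2. Of its 17 probe sets, 11 had a group mean above background, and 11 of the 17 differences were negative. On the brightest probe set the sign was the opposite, at 0.21 (limma adjusted p = 0.662).

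The DNA-binding partners came next. NRF1 encodes nuclear respiratory factor 1, which binds a palindromic GC-rich site in promoters of cytochrome and mitochondrial transcription factor genes. It is on chromosome 7, and its level was 7.24, 7.33 and 7.39 after transfer, against 7.57, 7.53 and 7.58 in the Control group. The groups were separate and the Control arrays close together. The means were 7.32 ± 0.075 after transfer and 7.56 ± 0.023 in the Control group (SD, n = 3 each), a difference of -0.24 (SE 0.10, 95% interval -0.47 to -0.0056, limma adjusted p = 0.255).

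Of the 15 probe sets of NRF1, 14 lay above background, 13 had a negative difference and 2 a positive one. The lowest difference was that of probe set 17051493, which read 6.93, 6.24 and 6.50 after transfer, against 7.64, 7.40 and 7.40 in the Control group. It was lower on every Mitochondrial transfer array by itself, with a difference of -0.92 and an adjusted p of 0.366. The brightest probe set of NRF1 read 8.56, 8.82 and 8.89 after transfer, against 8.72, 8.78 and 8.85 in the Control group. It showed no separation, its difference was -0.03 (95% interval -0.37 to 0.31, limma adjusted p = 0.941), and its sign turned with the normalization.

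GABPA and GABPB1 encode the subunits of GA-binding protein, also called NRF-2, in which the alpha subunit holds the ETS domain that binds DNA and the beta subunit activates transcription. GABPA is on chromosome 21, and its level was 8.07, 8.14 and 8.14 after transfer, against 7.81, 7.999 and 7.88 in the Control group. All Mitochondrial transfer arrays lay above all Control arrays, as they did for 8.77% of all genes. The means were 8.12 ± 0.042 after transfer and 7.90 ± 0.094 in the Control group (SD, n = 3 each), a difference of 0.22 (SE 0.10, 95% interval -0.02 to 0.46, limma adjusted p = 0.299). The sign depended on the summary, since the median over its probe sets on each array gave -0.21 (limma adjusted p = 0.576). The size did too, since the 2 probe sets at background had differences of 0.97 and 0.58. On the mean of probe sets above background, chosen after seeing the data, the difference was 0.13 (limma adjusted p = 0.443).

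Of 14 probe sets of GABPA, 12 lay above background, and 11 differences were positive and 3 negative. The highest (16921858) read 4.61, 5.01 and 4.91 after transfer, against 4.0, 3.82 and 3.80 in the Control group. It held the lowest adjusted p of the 155 probe sets, 0.279, but lay under background on all 6 arrays. The lowest (16921854) read 7.60, 8.45 and 7.59 after transfer, against 8.74, 8.65 and 8.13 in the Control group, with overlap. The brightest probe set of GABPA averaged 10.82 after transfer and 10.64 in the Control group, and its groups overlapped (difference 0.18, limma adjusted p = 0.553).

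GABPB1, on chromosome 15, had levels of 7.62, 7.37 and 7.42 after transfer, against 7.69, 7.60 and 7.74 in the Control group. Mitochondrial transfer replicate 1 lay within the Control range, and the difference was -0.21 (SE 0.11, 95% interval -0.48 to 0.05, limma adjusted p = 0.352). Its 14 probe sets were divided, with 8 negative and 6 positive differences. The brightest averaged 10.15 after transfer and 10.10 in the Control group. The difference between the subunits' changes was not tested.

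ESRRA encodes the orphan nuclear receptor ERRα, a main partner of PGC-1α at genes of oxidative metabolism. It is on chromosome 11, and its level was 7.33, 7.16 and 7.08 after transfer, against 7.30, 7.55 and 7.57 in the Control group. Control replicate 1 lay within the range after transfer. The difference was -0.28 (SE 0.12, 95% interval -0.57 to 0.0046, limma adjusted p = 0.270), and the brightest probe set gave -0.29 (limma adjusted p = 0.457). All 9 probe sets had a group mean above background, and 7 had a negative difference. The lowest (16726437) read 5.28, 5.20 and 5.64 after transfer, against 5.94, 6.56 and 6.87 in the Control group, without overlap and with an adjusted p of 0.378. Its mean was above the background of 6.18 in the Control group only, at 6.46, and below it after transfer, at 5.37.

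**Figure D2:**
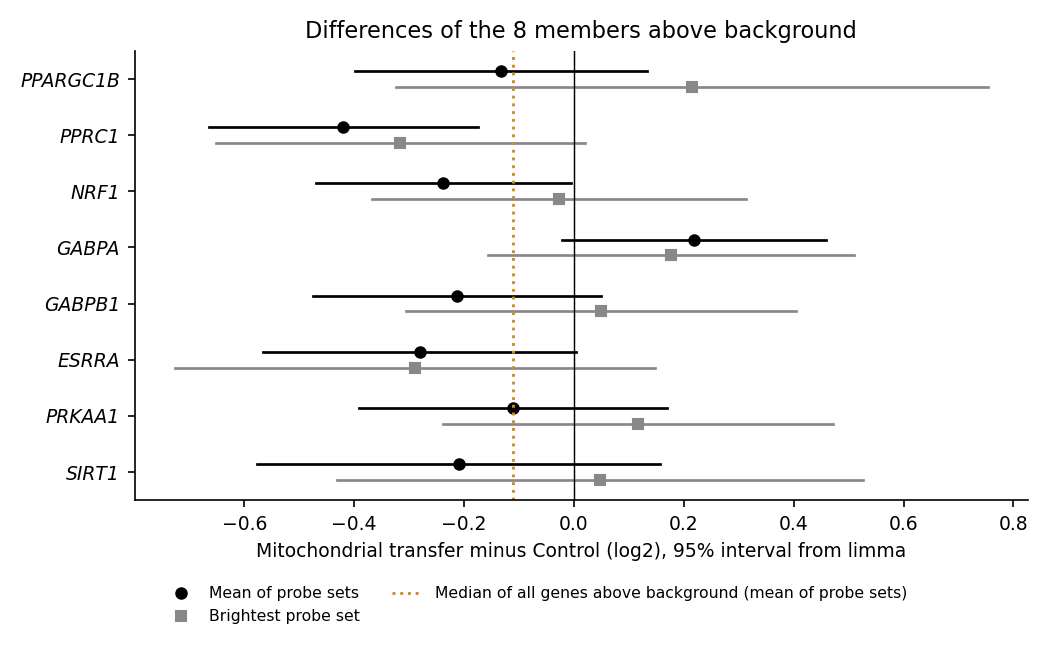
Mitochondrial transfer minus Control (horizontal axis, log2) for the 8 regulators above background, as the mean of probe sets (black circles) and the brightest probe set (grey squares), with limma's 95% intervals. PPRC1 is the furthest to the left at -0.42, GABPA is the only positive black circle, and the dotted line marks the median of -0.11 over all genes above background.

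The energy and NAD sensors came last. PRKAA1, on chromosome 5, encodes AMPK α1, the catalytic subunit found in most cells including lymphocytes, and its level was 8.31, 8.25 and 8.44 after transfer, against 8.34, 8.37 and 8.63 in the Control group. The groups overlapped, with a difference of -0.11 (SE 0.12, 95% interval -0.39 to 0.17, limma adjusted p = 0.662), and it was -0.0197 without Control replicate 3. Of its 17 probe sets, 11 differences were negative and 6 positive, and 0 passed even an unadjusted p of 0.05. The brightest probe set averaged 11.17 after transfer and 11.05 in the Control group, a difference of 0.12.

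PRKAA2, on chromosome 1, encodes AMPK α2, the form known from muscle and heart. Its level was 3.98, 4.36 and 4.37 after transfer, against 4.15, 4.10 and 4.31 in the Control group, below background throughout. Only 1 of 9 probe sets had a group mean above background, the brightest, which read 7.51, 5.92 and 7.10 after transfer, against 5.96, 6.53 and 6.30 in the Control group. It passed the background of 6.59 on 2 Mitochondrial transfer arrays and on 0 Control arrays. The groups overlapped, and the limma adjusted p was 0.488. Without Mitochondrial transfer replicate 1 the mean after transfer was 6.51, under background, so no fold is given.

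SIRT1, on chromosome 10, encodes the deacetylase that acts on PGC-1α when NAD is plentiful. Its level was 7.57, 7.13 and 7.66 after transfer, against 7.79, 7.69 and 7.52 in the Control group. Mitochondrial transfer replicate 2 was the lowest array and the other two lay inside the Control range. The difference of -0.21 (SE 0.16, 95% interval -0.58 to 0.16, limma adjusted p = 0.508) was -0.048 without that array. Of 14 probe sets, 10 differences were negative. The brightest averaged 9.33 after transfer and 9.29 in the Control group.

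Taken probe set by probe set, 92 of the 155 differences were negative and 63 positive, with a median of -0.13 against -0.05 over all probe sets. Of the 155, 18 had an unadjusted limma p under 0.05, 11 lower and 7 higher, which is 11.6% against 10% of all probe sets. The groups did not overlap in 20 that were lower (10.3% of all probe sets) and in 8 that were higher (7.53% of all). Of the 20, 8 belonged to PPRC1. Of the 110 with a group mean above background, 64.5% had a negative difference, with a median of -0.16. Over all probe sets whose mean over the 6 arrays was above background, the values were 61.0% and -0.0960. By that second rule 107 of the 155 were above background, so the shares do not rest on the same rule. The 45 with neither group mean above background were divided, with 21 negative and 24 positive.

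**Figure D3:**
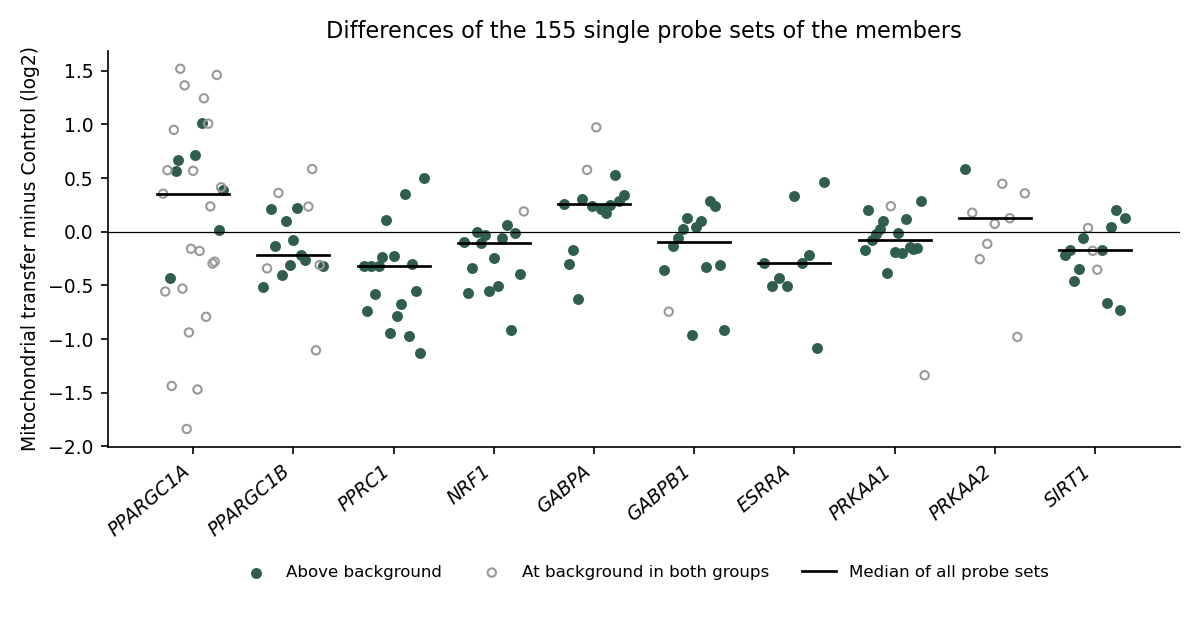
Mitochondrial transfer minus Control (vertical axis, log2) for each of the 155 probe sets, by gene, in the order of their identifiers. Filled points lay above background in at least 1 group and open ones in neither, and the black line is the median per gene, which is -0.32 for PPRC1 and 0.25 for GABPA.

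The differences were read against those of genes of like brightness, because bright and dim genes leaned in opposite directions. When all genes were divided by brightness into 10 classes of 2226, the median difference was 0.12 and 30.6% of genes were negative in the dimmest class, and in the brightest class the median was -0.14 and 76.6% were negative. On the mean of probe sets, PPARGC1B, PRKAA1, GABPB1 and SIRT1 lay within 0.1 of the median of their own class, at -0.02, 0.03, -0.06 and -0.06 from it, and NRF1 at -0.10. ESRRA lay at -0.14 and PPRC1 at -0.27. GABPA lay on the other side, at 0.37 above the median of its class, which was -0.15. On the brightest probe set the distances were 0.21 for PPARGC1B, 0.19 for PRKAA1, 0.10 for GABPB1, 0.06 for SIRT1 and -0.03 for NRF1. They were -0.32 for ESRRA, -0.27 for PPRC1 and 0.25 for GABPA. The class medians on that summary went only from 0.09 in the dimmest class to -0.07 in the brightest. These distances are descriptions and were not tested.

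**Figure D4:**
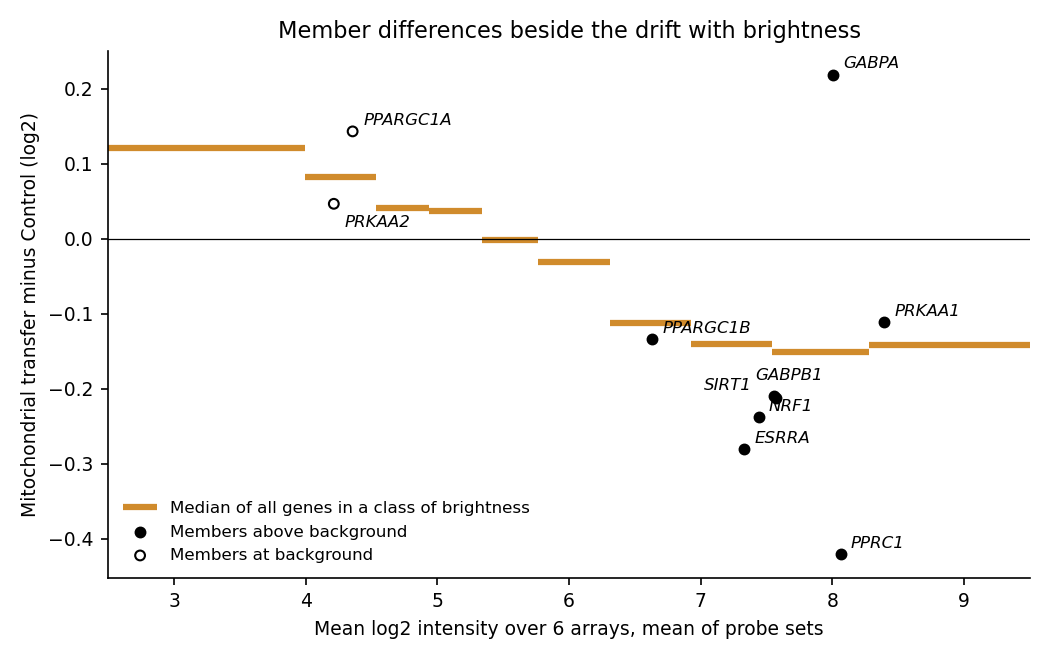
Mitochondrial transfer minus Control (vertical axis, log2) against mean log2 intensity (horizontal axis), both on the mean of probe sets. The regulators are points and the median of all genes in each brightness class is an orange bar (the outer bars run beyond the axis). The bars go from 0.12 in the dimmest class to -0.14 in the brightest, and GABPA and PPRC1 stand furthest from them.

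The rest of the pathway was described through 7 lists of 98 genes in all, of which 95 were measured and 77 lay above background. None of the 95 passed an adjusted p of 0.05 in either direction, on the mean of probe sets or on the brightest probe set, and 67 differences were negative and 28 positive (median -0.16). At an unadjusted limma p under 0.05, 19 of 95 were lower and 4 higher, against 12.3% and 6.72% of all genes. With a trended and robust variance 13 of 95 passed, all lower, as did 4.6% of all genes. Only 53.1% of all genes lay above background on their mean over the 6 arrays, and 69.5% of those had a negative difference. The shares over all genes are therefore not shares over genes of like brightness. The lowest adjusted p in the lists was 0.0989 on the mean of probe sets, for COX5B, and 0.0547 on the brightest probe set, for RXRA.

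Around AMPK, 8 of 10 measured genes had a negative difference (median -0.09, and 0.0084 on the brightest probe set), and 0 passed. CAMKK2, a calcium-dependent kinase that activates AMPK, read 7.61, 7.46 and 7.32 after transfer, against 7.71, 7.74 and 7.87 in the Control group (difference -0.31, limma adjusted p = 0.216). STRADA, the pseudokinase that holds LKB1 in its active form, had a difference of -0.31, and STK11, which is LKB1 itself, -0.23. These 3 were named for the smallest p in the list, and their groups were separate, as in 17.5% of all genes in that direction. PRKAG2, PRKAG3 and CAMKK1 lay at background.

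Among 18 regulators of PGC-1 expression and activity, 14 had a negative difference (median -0.15 on both summaries), and 0 passed. KAT2A, the acetyltransferase GCN5 that acetylates PGC-1α, had the largest of the named ones at -0.52 (limma adjusted p = 0.111). PARP1, which consumes NAD, was at -0.40, and CRTC2, a coactivator of CREB, at -0.38. These too were the genes of smallest p in their list. On the brightest probe set KAT2A was at -0.80, PARP1 at -0.17 and CRTC2 at -0.15.

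Among 13 transcription factor partners, 8 had a negative difference (median -0.18, and -0.29 on the brightest probe set), and 0 passed. YY1, a zinc finger factor that joins PGC-1α at mitochondrial genes, had a difference of -0.45 (limma adjusted p = 0.116), and HCFC1, a cofactor of GABP and of PGC-1 coactivators, -0.36. RXRA, the retinoid receptor that pairs with PPARs, went the other way at 0.34. ESRRB, ESRRG and PPARG lay at background.

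The nuclear genes that transcribe and copy mitochondrial DNA were measured for 9 of 10, and 6 differences were negative (median -0.14, and -0.03 on the brightest probe set) with 0 passing. TFAM, which packages and transcribes mitochondrial DNA and is a classical NRF-1 target, averaged 7.84 after transfer and 7.77 in the Control group (difference 0.08, limma adjusted p = 0.735). TEFM, the elongation factor, had a difference of -0.43 (limma adjusted p = 0.136) and TFB2M, the initiation factor, -0.22. TFB1M, a related ribosomal RNA methyltransferase, read 7.55, 7.35 and 7.63 after transfer, against 7.25, 7.13 and 7.04 in the Control group, a difference of 0.37 (limma adjusted p = 0.168). The groups were thus separate in opposite directions for these paralogous factors, and neither passed. On the brightest probe set the differences were -0.10 for TEFM, -0.28 for TFB2M and 0.44 for TFB1M.

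Respiratory chain, heme and import genes listed as known targets of NRF-1 or GABP had a negative difference in 13 of 17 (median -0.22, and -0.13 on the brightest probe set), and 0 passed. Binding was not measured here. COX5B, a subunit of cytochrome c oxidase, averaged 6.85 after transfer and 7.36 in the Control group, a difference of -0.51 (limma adjusted p = 0.0989). ATP5MC1, a c subunit of ATP synthase, had a difference of -0.68 and ATP5F1C, its gamma subunit, -0.34. On the brightest probe set COX5B was at -0.13, ATP5MC1 at -0.62 and ATP5F1C at 0.0033. The metabolic targets of PGC-1 and ERRα had 12 negative differences of 16 (median -0.16, and -0.0022 on the brightest probe set). UCP2, an inner membrane carrier, was at -0.59, MFN2, which fuses outer membranes, at -0.44, and CS, citrate synthase, at -0.35. On the brightest probe set these were at -0.28, -0.12 and -0.31.

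Sirtuins and the NAD supply were divided, with 7 positive and 6 negative differences (median 0.02, and 0.13 on the brightest probe set). NAMPT, the rate-limiting enzyme of NAD salvage, read 7.37, 7.01 and 6.75 after transfer, against 6.76, 6.48 and 6.28 in the Control group, a difference of 0.54 with overlap by the lowest Mitochondrial transfer array (limma adjusted p = 0.188). SIRT6, a nuclear sirtuin, had a difference of -0.33 and SIRT3, the main mitochondrial deacetylase, 0.27.

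**Figure D5:**
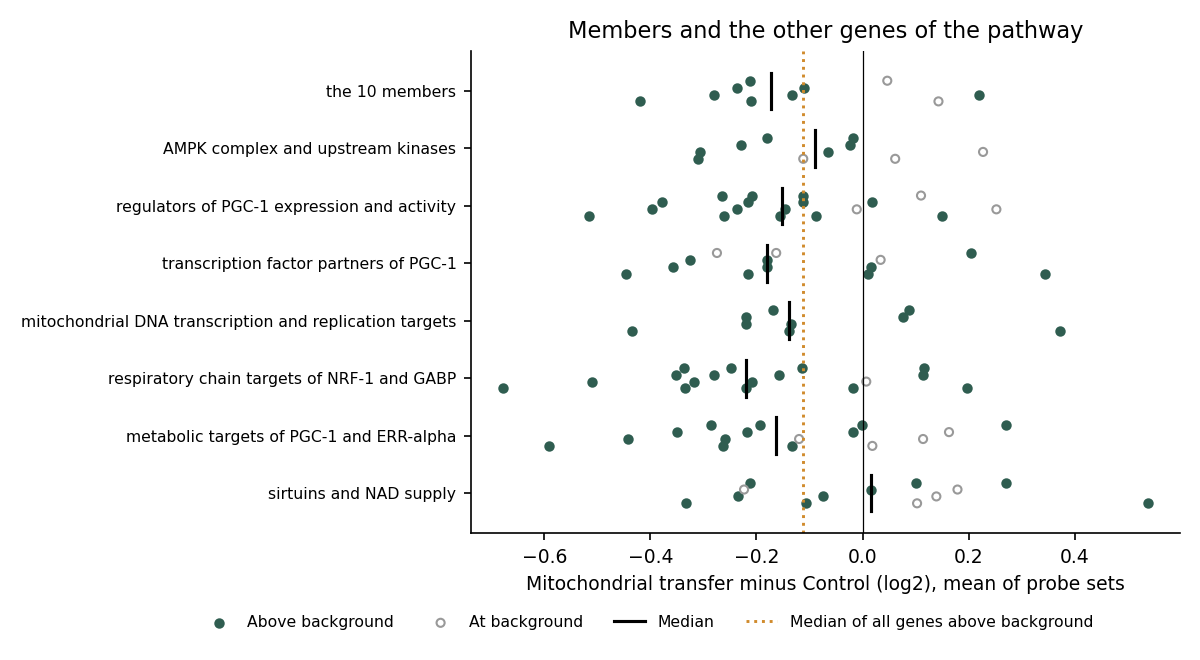
Mitochondrial transfer minus Control (horizontal axis, log2, mean of probe sets) for the 10 regulators and the measured genes of 7 pathway lists, filled where above background. Black ticks are the medians, from -0.22 for the respiratory chain to 0.02 for sirtuins and NAD supply, and the dotted line is the median of -0.11 over all genes above background.

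The sites that NRF-1, GABP and ERRα read were searched in RefSeq promoters (GRCh38.p14, 250 bases before to 50 after each start, 27305 windows), on both strands. The letters were GCGCATGCG for NRF-1, found in 2.10% of promoters, CCGGAAGTG for GABP, in 2.498%, and TCAAGGTCA for ERRα, in 0.359%. The first overlaps its own reverse complement by all but 1 base at the centre of the palindrome, so a full site counts on both strands. Of the 10 regulators, 9 had a window, and 0 of the 9 held any of the 3 sets of letters. Many listed target genes with a window, among them TFAM, CYCS, COX4I1 and COX5B, held none either. Of the pathway genes that held NRF-1 or GABP letters upstream of the start, 8 are shown as examples from the target lists, and COX6A1, CRTC1, SIRT5, SIRT6 and NMNAT1 held them too. They are printed with the matching letters, or their reverse complement, in capitals and the strand of the gene read 5′ to 3′.
TFB1M: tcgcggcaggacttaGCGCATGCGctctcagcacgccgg
TFB2M: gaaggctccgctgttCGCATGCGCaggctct
POLRMT: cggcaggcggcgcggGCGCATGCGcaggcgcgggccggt
SDHD: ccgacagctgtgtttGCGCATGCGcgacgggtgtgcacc
ATP5F1C: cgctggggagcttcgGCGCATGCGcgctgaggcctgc
TOMM20: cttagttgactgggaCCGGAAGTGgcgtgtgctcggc
TOMM70: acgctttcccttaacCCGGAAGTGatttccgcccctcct
SIRT3: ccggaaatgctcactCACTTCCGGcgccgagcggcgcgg

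These stretches lie upstream of the gene starts. The NRF-1 letters were in chr6:155314593-155314631 (minus strand) for TFB1M, chr1:246566262-246566292 (minus) for TFB2M, chr19:633538-633576 (minus) for POLRMT, chr11:112086748-112086786 (plus) for SDHD and chr10:7788140-7788176 (plus) for ATP5F1C. The GABP letters were in chr1:235128838-235128874 (minus) for TOMM20, chr3:100401170-100401208 (minus) for TOMM70 and chr11:236949-236987 (minus) for SIRT3. Among these 8, genes with the same letters did not all share a direction. With the NRF-1 letters, TFB1M stood at 0.37, against -0.22 for TFB2M, -0.13 for POLRMT, the mitochondrial RNA polymerase, -0.22 for SDHD, a subunit of complex II, and -0.34 for ATP5F1C. With the GABP letters, TOMM20 and TOMM70, receptors of the outer membrane import machinery, stood at 0.20 and -0.21, and SIRT3 at 0.27. Of the others with NRF-1 letters, CRTC1 stood at -0.16, SIRT5 at -0.21, SIRT6 at -0.33 and COX6A1, at background, at 0.0071. TFB1M was thus the only clearly positive one with these letters upstream of the start. NMNAT1, with GABP letters, stood at 0.015. None of these differences passed an adjusted p of 0.05.

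Over the 9036 genes above background that had a promoter window, the 361 with the NRF-1 letters had a median difference of -0.16, against -0.12 for those without, and 77.6% against 71.6% were negative. The 489 with the GABP letters had a median of -0.17, against -0.12 without. For the ERRα letters only 20 genes were available, with a median of -0.06, against -0.12 without. These medians are descriptions and were not tested.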

How the data were processed

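The log2 values were deposited by the authors, whose labels name Affymetrix Power Tools and RMA (versions not given in the sources used here). RMA subtracts background, makes the distributions of the single probes equal between arrays and then yields 1 value for each exon-level probe set. The probe set values were not fully equal in level, since median centring moved the median difference over all genes from -0.03 to 0.0069. Of 352859 probe sets, 259224 named 1 gene, 13116 several and 80519 none. Symbols were brought up to date (1726 updated, 65 unmatched). All 6 arrays were fitted in limma 3.58.1 under R 4.3.3 (lmFit, eBayes) with Benjamini-Hochberg adjustment over all features, on the mean over the probe sets of a gene, on its brightest probe set and on every probe set. No filter was applied. The fit was tested on simulated data. Having only 3 arrays a group limits the precision.

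The members and lists were chosen with earlier results of these data known. Named were all members, the 3 genes of each list with the smallest p, and for each member the brightest, highest and lowest probe sets. TFAM and the genes named for their promoters were added after values were seen, as were genes that a small count includes. Gene coordinates on the array's build were not used here. The same-numbered samples did not deviate together (r = 0.0469, -0.00761 and -0.0129), so the numbers were not taken as pairs. Alternatives were other normalizations, a filter on dim genes, trend and robust, array weights, a replicate block, the methods' t-test, the median of probe sets, each array left out, and, chosen after seeing the data, the mean of probe sets above background.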

Additional observations from a re-analysis of the deposited data

How the results depend on the processing

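No regulator passed on the mean of probe sets under the main setting, other normalizations, array weights, the median of probe sets, the mean of probe sets above background (chosen after seeing the data) or any array left out. PPRC1 alone passed, lower, with the filter on dim genes (1 regulator) and with trend and robust (1 regulator). The methods' t-test, unadjusted, gave 3 on the mean of probe sets (PPRC1 and NRF1 lower, GABPA higher), 1 on the brightest probe set (PPRC1) and 15 of 155 probe sets, and 0 regulators after adjustment. Over all genes that test gave 1206 higher and 2694 lower on the mean and 2113 and 1676 on the brightest probe set. Its share over all single probe sets is not given here, so the 15 are not read as many or few. By the unadjusted limma p, 10% of all probe sets passed, beside 11.6% of the 155. With the replicate number as a block, 0 regulators passed, as for every blocked fit of the regulators, and the calls over all genes were 8 higher and 0 lower, against 53 and 18 without it. Calls over all genes also varied with the filter (211 and 870), trend and robust (277 and 1025), the median of probe sets (14 and 2), the mean of probe sets above background (402 and 355) and arrays left out (6 to 12 higher, 0 to 1 lower). Of the other pathway genes, 13 passed with trend and robust, against 0.

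The median difference of the 10 regulators on the mean of probe sets, -0.17, ran from -0.19 to -0.0601 with arrays left out, the latter without Mitochondrial transfer replicate 2. With quantile normalization, cyclic loess and median centring it was -0.12, -0.11 and -0.13. The median over all genes, -0.03, became 0.0076, -0.0095 and 0.0069 in the same order. PPRC1 moved from -0.42 to -0.36, -0.34 and -0.38, and GABPA from 0.22 to 0.28, 0.29 and 0.26. On the brightest probe set the median of the regulators was 0.08, 0.17 with cyclic loess, and 0.0432 to 0.165 with arrays left out, the last without Control replicate 3. Over the 155 probe sets it was -0.13, -0.0787 with quantile normalization, -0.0655 with cyclic loess and -0.132 to -0.0768 with arrays left out, the last without Mitochondrial transfer replicate 1. Signs turned for GABPA with the median of probe sets (-0.21) and, on the brightest probe set, for NRF1 (0.0414 with quantile normalization, 0.0625 with cyclic loess, 0.0133 with median centring, -0.0933 to 0.0691 with arrays left out), GABPB1 (-0.0194 to 0.166 with arrays left out) and SIRT1 (-0.12 to 0.21 with arrays left out). The cause was not tested. Levels at background, as for PPARGC1A and PRKAA2, limit what could be detected.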
